A study of Mus musculus with 32 samples.

Results

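Transcripts of the leukocyte integrins and their adhesion ligands were measured in primary mammary tumors and in lungs from mice that were wildtype (WT) or knockout (KO) for *Clic4*. The genes were chosen by symbol as *Itgal*, *Itgam*, *Itgax*, *Itgad*, *Itgb2*, *Itga4*, *Icam1*, *Icam2* and *Vcam1*, and all 9 had a single row in the table of 29511 genes. RNA was sequenced from 32 samples of virgin female FVB/N mice, littermates from intercrosses of heterozygotes. The KO hosts lacked *Clic4* in every cell from the germline, through removal of a region around its second exon. Primary tumors were taken 14 days after 6DT1 mammary tumor cells were injected into a mammary fat pad of 6 KO and 6 WT hosts, and lungs were taken at the same time from 6 KO and 6 WT tumor-bearing mice. Control lungs came from 4 KO and 4 WT mice at baseline. The implanted 6DT1 cells carry *Clic4* in both host genotypes, so the tumors are mixtures of *Clic4*-bearing tumor cells with KO or WT host cells, and 6DT1 is a single cell line. Whether a tumor and a lung with the same number came from the same mouse is not given in the labels.

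Integrins are adhesion receptors built from an alpha and a beta chain. *Itgb2* encodes the beta chain CD18, which pairs with the alpha chains CD11a (*Itgal*, giving LFA-1, abundant on lymphocytes), CD11b (*Itgam*, giving Mac-1, of neutrophils and macrophages), CD11c (*Itgax*, of dendritic cells and alveolar macrophages) and CD11d (*Itgad*, of some macrophages). ICAM1 and ICAM2, made by endothelium and other cells, are ligands of these receptors, and ICAM1 is induced by interferon gamma and TNF. VCAM1, another ligand induced on inflamed endothelium, is bound by integrins that contain the alpha 4 chain (*Itga4*), which pairs with beta 1 or beta 7. Together these molecules let leukocytes stop on a vessel wall and cross it, and let T cells hold on to the cells that they recognise.

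The 4 alpha chain genes that pair with *Itgb2* lie on the plus strand of chromosome 7 (GRCm38, GENCODE M21). *Itgam* (128062640 to 128118491), *Itgax* (128129547 to 128150657) and *Itgad* (128154376 to 128223816) follow each other with gaps of 11.1 kb and 3.7 kb, whereas *Itgal* (127296260 to 127335138) ends 727.5 kb before *Itgam*. Neighbouring copies also share sequence. Of the distinct runs of 50 bases in the transcripts of *Itgax*, 8.02% also occur in *Itgad*, and 13.5% of those of *Itgad* occur in another gene, *Itgax* among them, so reads from these parts could have been divided between the genes. For *Itgam*, 66.3% of such runs also occur in *Gm49368*, an overlapping gene model on the same strand that has no row in either table. No other member shared more than 2.27%. *Itgb2* lies on chromosome 10 (77530252 to 77565708, plus strand), *Itga4* on chromosome 2 (79255426 to 79333123, plus strand) and *Icam1* on chromosome 9 (21015985 to 21028817, plus strand). *Icam2* lies on chromosome 11 (106377656 to 106388075) and *Vcam1* on chromosome 3 (116109949 to 116129688), both on the minus strand.

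RefSeq (GRCm38.p6) gave a promoter for 4 of the 9 members, and 3 of them, picked with their tumor values known, are shown. No test compared these genes with each other, and their motifs were not tested against their tumor values. The 250 bases before the RefSeq start were searched on both strands. In *Icam1* (chr9:21015690-21015939, plus strand) the capitals mark 2 matches to the kappaB-like motif GGNNNTTCC and 1 match to the interferon gamma activated site (GAS) motif TTCNNNGAA. In *Itgam* (chr7:128062390-128062639, plus strand) they mark 2 matches to GAGGAA, the core of the motif of the myeloid factor PU.1, and 1 match to the GC box GGGCGG. In *Itgax* (chr7:128129300-128129549, plus strand) none of these motifs was matched. The ISRE-like motif, GAAA followed by any 2 bases and GAAA again, was matched in none of the windows, and *Icam1* also has 1 GC box, left in lower case. The window of *Itga4*, not shown, held 1 GC box and none of the other motifs.
Icam1: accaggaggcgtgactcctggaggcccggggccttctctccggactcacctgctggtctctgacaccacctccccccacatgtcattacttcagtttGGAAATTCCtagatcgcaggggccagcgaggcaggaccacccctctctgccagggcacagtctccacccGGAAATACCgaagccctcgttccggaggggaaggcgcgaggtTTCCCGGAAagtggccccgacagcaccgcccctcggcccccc
Itgax: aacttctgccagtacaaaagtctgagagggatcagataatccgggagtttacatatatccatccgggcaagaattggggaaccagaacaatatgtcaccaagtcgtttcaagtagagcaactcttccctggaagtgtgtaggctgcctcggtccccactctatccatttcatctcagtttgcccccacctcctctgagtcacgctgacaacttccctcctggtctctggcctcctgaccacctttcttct
Itgam: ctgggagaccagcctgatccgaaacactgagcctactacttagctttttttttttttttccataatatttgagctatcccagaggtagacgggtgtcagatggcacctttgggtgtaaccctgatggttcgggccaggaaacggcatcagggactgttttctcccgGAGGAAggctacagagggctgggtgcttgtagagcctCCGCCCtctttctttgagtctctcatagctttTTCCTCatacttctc
The kappaB-like matches in *Icam1* begin 153 and 84 bases before the start and read GGAAATTCC and GGAAATACC. The GAS match begins 42 bases before it and reads TTCCCGGAA, and no matches overlap. Such letters are not rare. Of all 32851 promoter windows of the same length, 15.7% hold the kappaB-like motif, 7.02% the GAS motif, 2.98% the ISRE-like motif, 23.3% GAGGAA and 32.7% the GC box, so a match is a description and not a bound site.

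The samples held from 4446323 to 8318711 gene counts each. *Clic4* was 1.49 lower on the log2 scale in KO than in WT lungs at 14 days and 1.45 lower in controls, and 0.21 lower in tumors of KO hosts (edgeR's quasi-likelihood test, adjusted p = 2.06e-09, 1.73e-07 and 0.0343). This check of the labels is partial, since reads outside the removed region are still counted. The lung epithelial markers summed to at most 3.24 FPKM in tumors and to at least 32329 in lungs. WT tumor 4 had the lowest level in its group for 8 of the 9 genes and for *Ptprc*, the gene of the leukocyte antigen CD45 (20.9 FPKM against a median of 38.7). Within a group the replicates are separate mice, and p-values measure the spread between them. Comparisons of tumors with lungs treat all samples as independent, although a tumor and a lung may share a mouse. In bulk tissue, fewer cells of a type and less RNA per cell cannot be told apart.

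The order of the genes differed between the tissues. Levels are given in FPKM, fragments scaled for transcript length and for the size of the library, which can be compared between genes. In WT tumors *Itgb2* led at 45.4 ± 8.83 FPKM (SD, n = 6), followed by *Itgam* at 21.5 ± 5.39 and *Vcam1* at 11.9 ± 3.38. *Icam1* (7.10 ± 2.11), *Itga4* (6.32 ± 2.50), *Itgax* (5.61 ± 1.3), *Itgal* (3.62 ± 1.14) and *Icam2* (3.47 ± 1.83) came next, and neighbours from *Itgb2* to *Icam2* in this order overlapped in their ranges. The range of *Itgad*, at 0.547 ± 0.230 FPKM, lay wholly below that of *Icam2*. In KO hosts the order was the same but for *Itgax* ahead of *Itga4*, and there *Itgb2* (62.9 ± 15.2) lay clear of *Itgam* while the other neighbours overlapped. In WT control lungs the ligands led instead. *Icam1* was at 159 ± 4.28 FPKM (SD, n = 4) and *Icam2* at 109 ± 7.57, ahead of *Itgb2* at 35.5 ± 4.83, and these 3 did not overlap. They were followed by *Vcam1* at 22.2 ± 2.16 and *Itga4* at 21.1 ± 2.28, which overlapped, by *Itgal* at 13.8 ± 1.60 and *Itgax* at 13.3 ± 2.03, which also overlapped, and by *Itgam* at 7.05 ± 1.13 and *Itgad* at 1.57 ± 0.627.

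**Figure D1:**
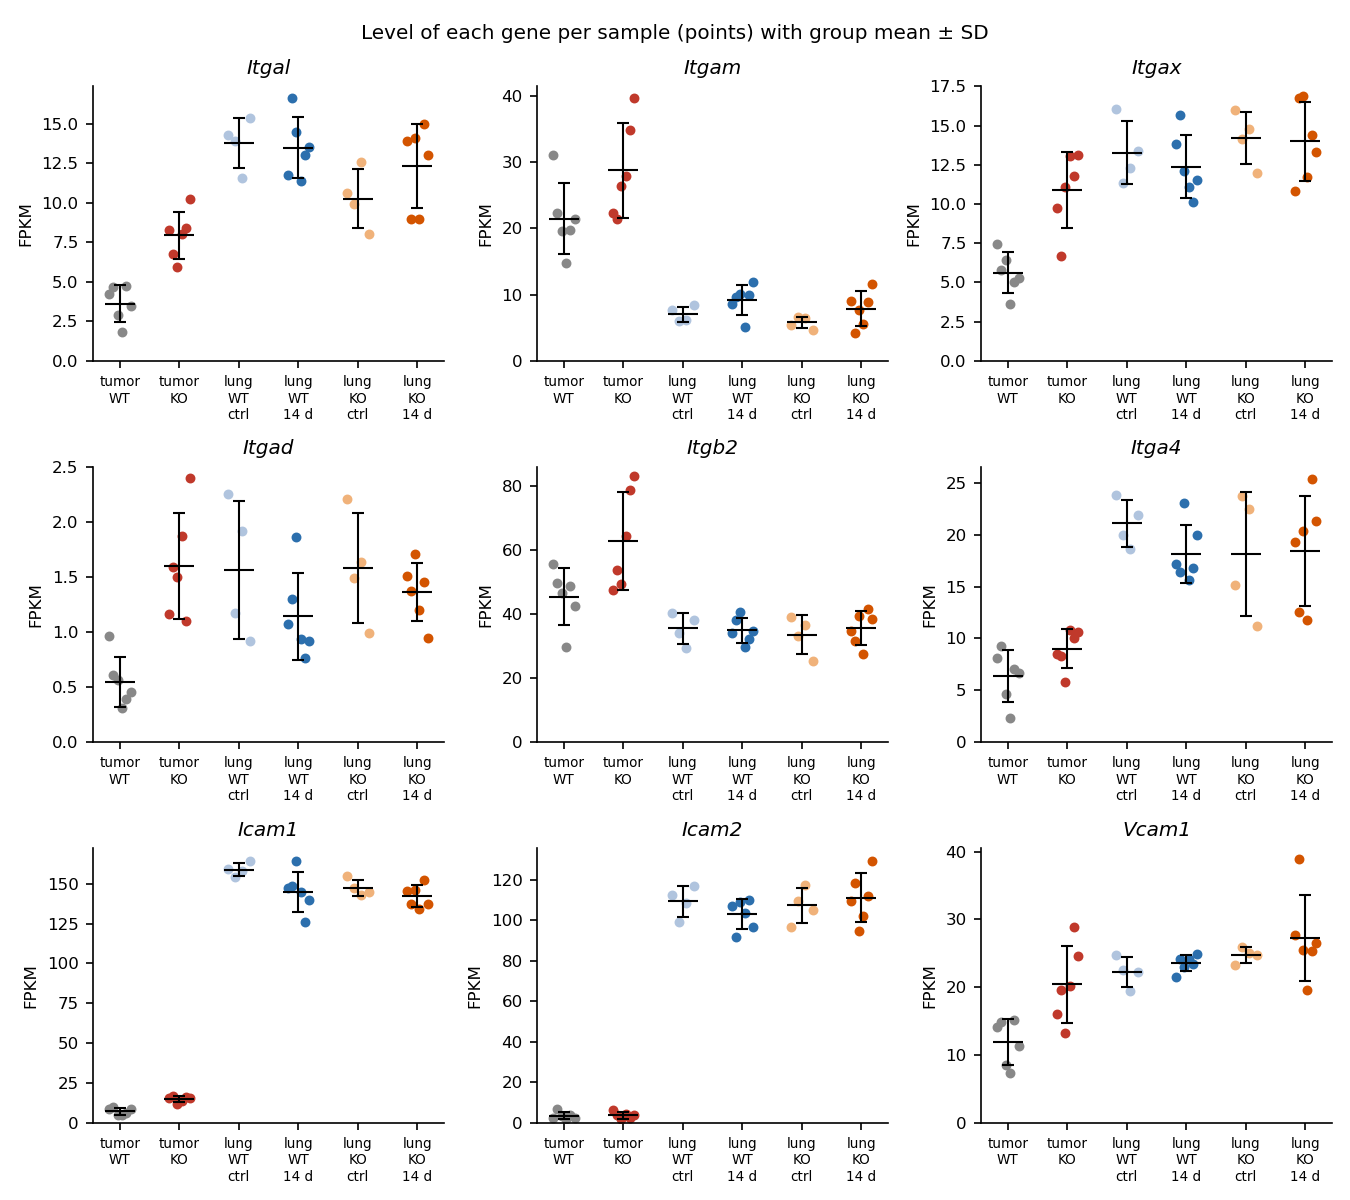
FPKM of the 9 genes in each sample (points) by group, with the group mean and SD (black), on axes that start at 0 and differ between genes. In tumors of KO hosts the points of *Itgal*, *Itgad* and *Icam1* lie wholly above those of WT hosts, while the 4 lung groups overlap for every gene in the comparisons of 14 days with control and of KO with WT at 14 days.

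The first question was whether these genes differed in the tumor with the genotype of the host. The 9 genes were chosen with earlier results of these data known. The study had already listed *Icam1* among genes behind pathways higher in tumors of KO hosts. Counts of the 9 against all genes are therefore a description. Tumors of KO hosts had higher fitted levels than tumors of WT hosts for all 9 genes, and 5 passed the test, namely *Itgad*, *Itgal*, *Icam1*, *Itgax* and *Vcam1*, at 1.78 to 2.73 times the WT level. Of the 13830 genes tested in tumors, 347 (2.51%) passed an adjusted p of 0.05 with edgeR's quasi-likelihood test, 279 of them (2.02%) higher in KO hosts. The median log2 fold change of the 9 genes was 0.83, and that of all genes tested was −0.01. Each of the 9 had an unadjusted p under 0.05, as did 15.5% of all genes, and DESeq2 called 8, all but *Icam2*, and 3.97% of all genes.

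Among the alpha chains, *Itgal* had the smallest adjusted p. Its level in tumors of WT hosts was 1.80 FPKM at the lowest, 3.83 at the median and 4.74 at the highest, and in tumors of KO hosts 5.94, 8.15 and 10.3. No KO tumor fell into the WT range, and the fitted difference was 1.21 ± 0.17 (log2, SE, adjusted p = 0.000970). *Itgad*, the least abundant chain, ran from 0.31 to 0.96 FPKM with a median of 0.505 in WT hosts, and from 1.10 to 2.40 with a median of 1.54 in KO hosts. These ranges did not overlap either, with a log2 fold change of 1.45 ± 0.22 (adjusted p = 0.00174), although it rests on 6 to 19 counts per WT tumor and 20 to 41 per KO tumor. *Itgax* ran from 3.63 to 7.45 FPKM (median 5.54) in WT and from 6.67 to 13.1 (median 11.4) in KO hosts. The overlap came from KO tumor 2 at 6.67 and WT tumor 1 at 7.45, and the difference was 1.00 ± 0.16 (adjusted p = 0.00177).

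The remaining chains had smaller differences that missed the threshold. *Itgam* was between 14.7 and 31.1 FPKM in WT hosts (median 20.6) and between 21.4 and 39.7 in KO hosts (median 27.1), with overlapping groups and a log2 fold change of 0.46 ± 0.14 (adjusted p = 0.111). *Itgb2*, the shared beta chain, ranged from 29.6 to 55.5 (median 47.6) and from 47.4 to 83.1 FPKM (median 59.2). KO tumors 5 and 6 were the highest, at 78.8 and 83.1, and the log2 fold change was 0.49 ± 0.15 (adjusted p = 0.121). *Itga4* ranged from 2.29 to 9.22 (median 6.84) and from 5.76 to 10.8 FPKM (median 9.28), at 0.61 ± 0.19 (adjusted p = 0.12). DESeq2 called each of these 3, with adjusted p of 0.0424, 0.0457 and 0.0419.

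Of the ligands, *Icam1* was at 4.85 to 9.80 FPKM in WT hosts (median 7.19) and at 11.7 to 16.9 in KO hosts (median 15.8), so that the groups did not overlap, with a log2 fold change of 1.13 ± 0.17 (adjusted p = 0.00118). *Vcam1* was at 7.30 to 15.1 FPKM (median 12.7) and 13.2 to 28.8 (median 19.9). KO tumor 3, at 13.2, lay within the WT range, and the log2 fold change was 0.83 ± 0.19 (adjusted p = 0.0305). Its call was lost when KO tumor 2, 5 or 6 or WT tumor 3 or 4 was left out, with adjusted p from 0.0565 to 0.0883 and log2 fold changes from 0.71 to 0.83. *Icam2*, largely an endothelial ligand, gave 5 to 16 counts per WT tumor and 8 to 21 per KO tumor. Its fitted log2 fold change was 0.69 ± 0.26 (adjusted p = 0.217), whereas its mean FPKM was 3.47 ± 1.83 (SD, n = 6) in WT and 3.61 ± 1.60 in KO hosts.

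Every KO tumor was above every WT tumor in FPKM for 3 of the 9 genes, *Itgal*, *Itgad* and *Icam1*. Among the 13816 tested genes with FPKM values this was so for 145 (1.05%).

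**Figure D2:**
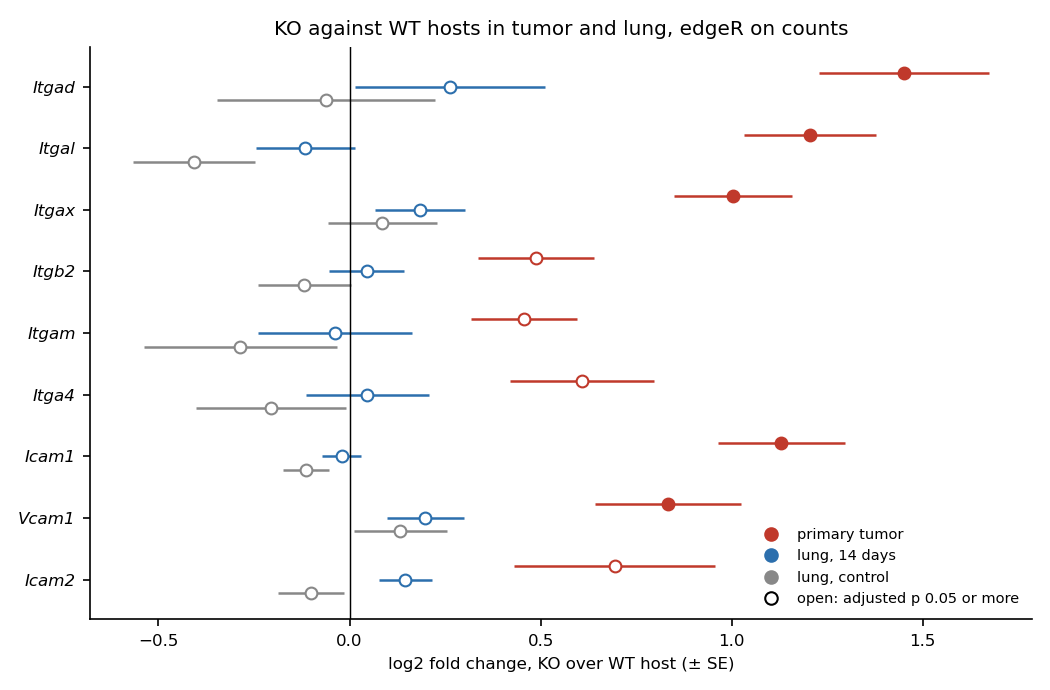
Log2 fold change of KO over WT hosts (± SE, from edgeR) for each gene in primary tumors (n = 6 and 6), 14-day lungs (n = 6 and 6) and control lungs (n = 4 and 4), with filled points for an adjusted p under 0.05. All 9 tumor values lie to the right of 0 and 5 are filled, while all lung points are open and lie between −0.41 and 0.26.

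The alpha chains did not keep the same proportions. Each chain was expressed as its share of the summed FPKM of *Itgal*, *Itgam*, *Itgax* and *Itgad* within a tumor. Such shares need no scaling between tumors. They are parts of a whole, so their tests are not separate results, and a lower share does not mean a lower level. *Itgam* itself had a higher mean level in KO hosts, 28.8 ± 7.21 FPKM against 21.5 ± 5.39 (SD, n = 6 each). Its fitted log2 fold change of 0.46 ± 0.14 (SE) did not pass (edgeR's quasi-likelihood test, adjusted p = 0.111). *Itgam* made up 66.0% to 71.9% in WT hosts and 53.8% to 62.1% in KO hosts. Every KO tumor was below every WT tumor, and the means were 68.7% ± 2.57 and 58.2% ± 3.24 (SD, n = 6 each, two-sided exact permutation test, p = 0.00216, the smallest possible, adjusted p = 0.00866 over 20 tests). *Itgad* had the higher share in KO hosts, 3.30% ± 0.836 against 1.70% ± 0.330 (exact permutation test, adjusted p = 0.0144), with KO tumor 5 at 1.96% inside the WT range. *Itgal* was at 16.4% ± 2.44 against 11.6% ± 2.78 and *Itgax* at 22.2% ± 2.86 against 18.0% ± 1.86, both with an adjusted p of 0.0541 in the exact permutation test. Computed from CPM in place of FPKM, both passed (0.0124 and 0.0216). With FPKM, *Itgal* also passed without WT tumor 5 (0.0247) or KO tumor 3 (0.0495), and *Itgax* without WT tumor 3 (0.0144), KO tumor 2 (0.0371) or KO tumor 6 (0.0495).

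**Figure D3:**
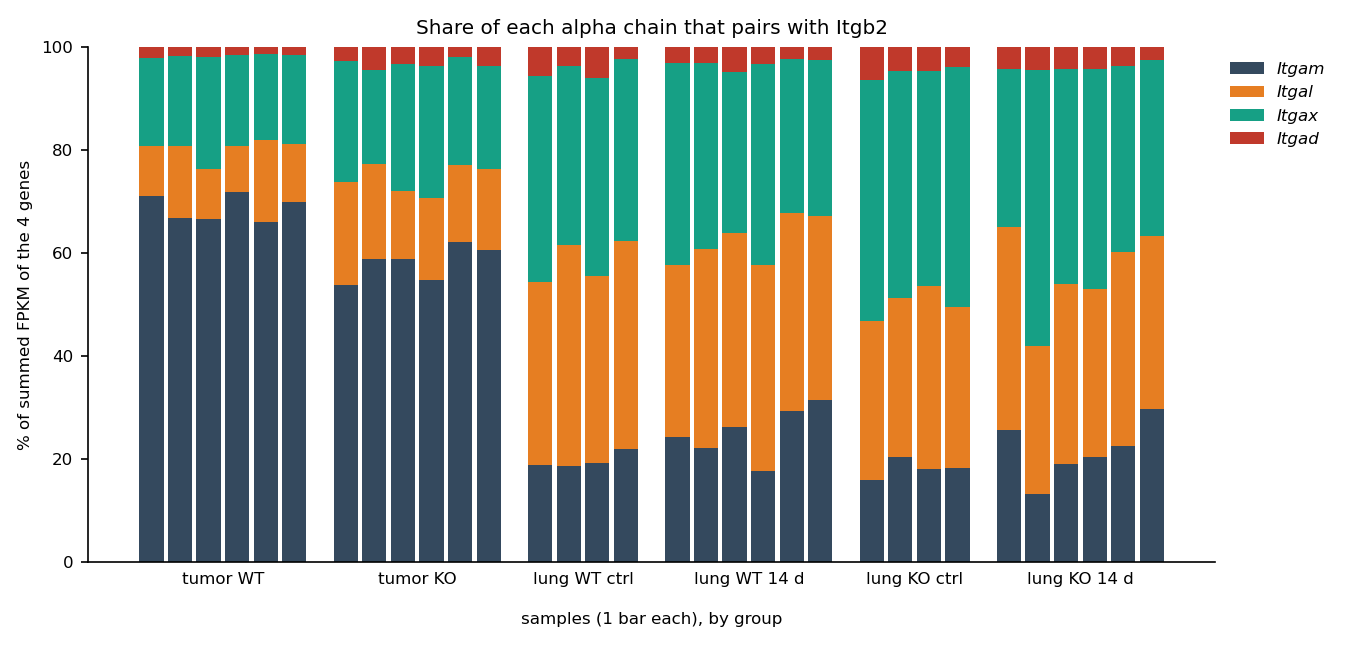
Share of *Itgam*, *Itgal*, *Itgax* and *Itgad* in their summed FPKM, with 1 stacked bar per sample and the 6 groups side by side. *Itgam* fills 66.0% to 71.9% of the bars of WT tumors, 53.8% to 62.1% of those of KO tumors and at most 31.4% of those of the lungs. The bars show shares and not levels, and the mean FPKM of *Itgam* was higher in KO than in WT tumors.

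The genes were also set against a reference within each tumor, the integrin chains against *Ptprc* and the ligands against *Pecam1*, an endothelial adhesion gene. *Ptprc* itself had a fitted log2 fold change of 0.63 ± 0.21 in KO over WT hosts (adjusted p = 0.146, 41.2 ± 16.4 FPKM in WT and 59.7 ± 9.16 in KO hosts), so a ratio near that of WT hosts does not mean an equal level. *Icam1* rose relative to *Pecam1*, with mean log2 ratios of −1.43 ± 0.30 in WT and −0.45 ± 0.26 in KO hosts (SD, n = 6 each), no overlap and an adjusted p of 0.0122 over 45 two-sided exact permutation tests. *Vcam1* over *Pecam1* was at −0.70 ± 0.36 and −0.04 ± 0.50 (exact permutation test, adjusted p = 0.105). *Itgal* over *Ptprc* was at −3.44 ± 0.29 and −2.90 ± 0.15 (exact permutation test, adjusted p = 0.0433). That call was lost in 11 of the 12 fits that left out a tumor, all but the fit without WT tumor 5, with adjusted p from 0.0584 to 0.0779, and with a pseudocount of 1 (0.0893). *Itgad* over *Ptprc* differed by 0.80 on the log2 scale (exact permutation test, adjusted p = 0.0584, and 0.0216 without KO tumor 5). *Itgb2* over *Ptprc* differed by −0.16, *Itgam* by −0.20, *Itgax* by 0.33 and *Itga4* by −0.02, and *Icam2* over *Pecam1* by −0.07, all with adjusted p of 0.364 or more in the exact permutation tests.

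**Figure D4:**
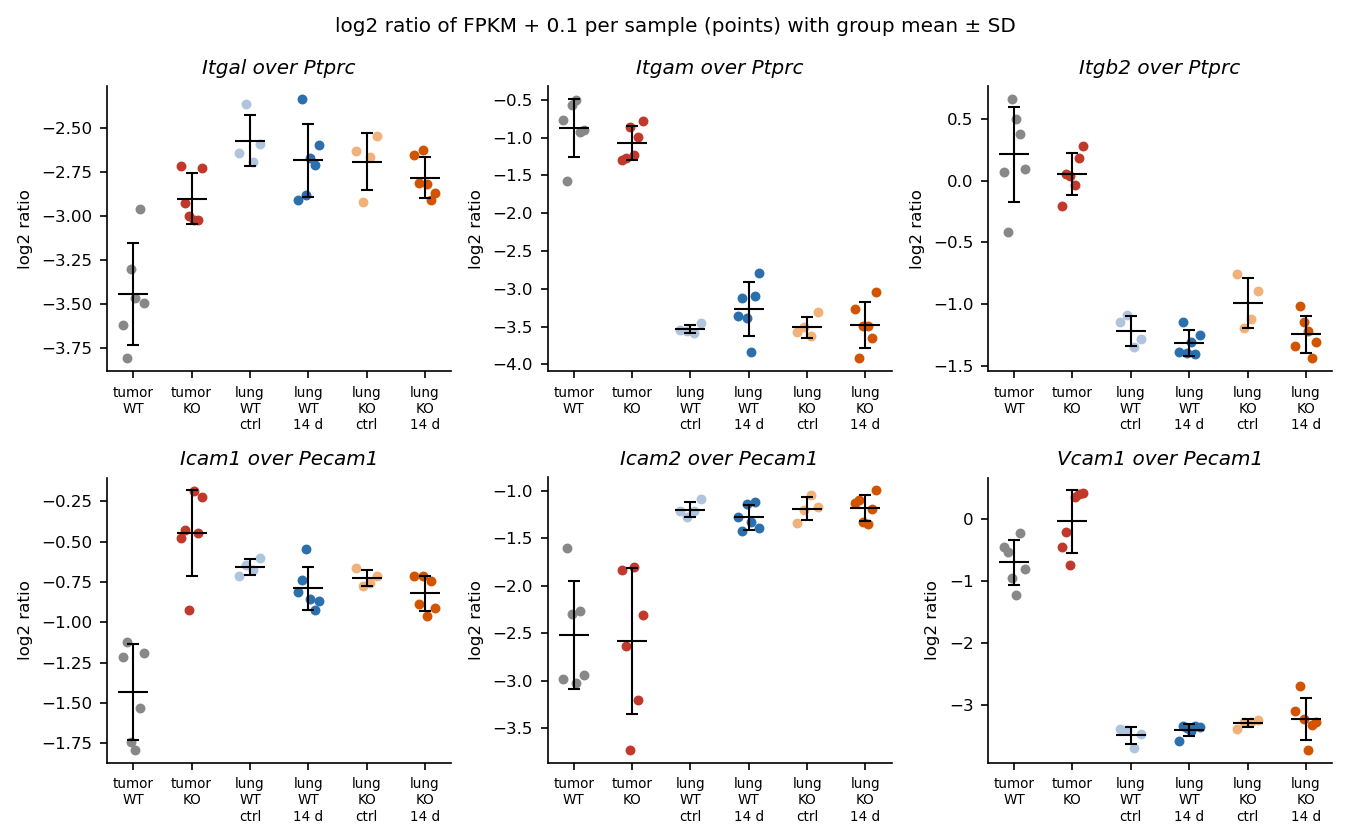
Log2 ratio of FPKM + 0.1 of 3 integrin chains over *Ptprc* and of the 3 ligands over *Pecam1* in each sample (points) by group, with mean and SD. In tumors the *Icam1* ratios of KO hosts (−0.93 to −0.18) lie above those of WT hosts (−1.79 to −1.12), whereas those of *Itgb2* overlap.

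Of 32 other listed genes of leukocyte adhesion, 27 could be tested in tumors, and 1 passed the test (against 2.51% of all genes), *Rap1b*, which encodes a small GTPase that activates integrins (log2 fold change 0.27 ± 0.07, adjusted p = 0.0419). Their median log2 fold change was 0.18. At an unadjusted p under 0.05 there were 9 of the 27 (against 15.5% of all genes), and DESeq2 called 3 (against 3.97%), *Rap1b*, *Fermt3* and *Selplg*. *Fermt3*, which encodes kindlin-3, was at 0.69 ± 0.19 (adjusted p = 0.0648 with edgeR and 0.0118 with DESeq2) and *Selplg*, the gene of the selectin ligand PSGL-1, at 0.74 ± 0.21 (0.0770 and 0.0164). *Itgb1* and *Itgb7*, which encode the partners of the alpha 4 chain, were at −0.08 ± 0.06 and 0.32 ± 0.14 (adjusted p = 0.568 and 0.289).

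Markers of host cells differed between the host genotypes to different degrees, and their part in the result was not tested. Of the T and NK cell markers 3 of 7 passed as higher in tumors of KO hosts, against 2.02% of all genes. These were *Cd3d*, *Cd3g* and *Nkg7*, at 1.46, 1.31 and 1.35 on the log2 scale. The summed FPKM of the 7 was 11.7 to 27.7 in WT and 23.4 to 42.3 in KO hosts. Of the leukocyte markers 1 of 3 rose (*Laptm5*, by 0.47), with sums of 62.7 to 171 and 131 to 178 FPKM. None of the 7 monocyte and macrophage markers passed, with sums of 349 to 832 and 517 to 1091 FPKM, and none of the 3 alveolar macrophage markers that could be tested of 6, with sums of 82.8 to 209 and 114 to 312. Of the neutrophil markers 4 of 7 could be tested and none passed, with sums of 23.2 to 37.1 and 13.1 to 61.9 FPKM. *Ly6g* had 0 counts in every tumor. Of 7 endothelial markers 6 could be tested and none passed, with sums of 34.9 to 47.3 and 31.0 to 51.7 FPKM. None of 5 fibroblast markers passed, with sums of 828 to 2048 and 989 to 2286 FPKM. None of 4 tumor epithelial markers passed either, and 2 had lower and 2 higher fitted levels in KO hosts. Their sums were 333 to 459 FPKM in WT (median 362) and 287 to 353 in KO hosts (median 330). DESeq2 called 0 in any of these lists without a call. At an unadjusted p under 0.05 in either direction, where 15.5% of all genes lay, there were 6 T and NK cell, 2 leukocyte, 2 macrophage, 1 alveolar macrophage, 1 neutrophil, 0 endothelial, 1 fibroblast and 2 tumor epithelial markers. The 4 B cell markers were too low to be tested, with sums of 0.28 to 23.2 FPKM in WT (median 1.03) and 0.7 to 2.59 in KO hosts (median 1.23). Listed genes induced by interferon or TNF also had higher fitted levels in KO hosts, and their part in the *Icam1* values was not tested. Their summed FPKM was 184 to 301 in WT and 387 to 782 in KO hosts, without overlap. Of 11 listed, 10 could be tested and 5 passed as higher in KO hosts, against 2.02% of all genes. Among them were the interferon-induced *Irf1*, *Gbp2*, *Cxcl9* and *Cxcl10*, at 1.16, 1.56, 3.28 and 2.30 on the log2 scale. The NF-kappaB targets *Nfkbia*, *Tnfaip3* and *Relb* were at 0.32, 0.61 and 0.52 (adjusted p = 0.346, 0.0776 and 0.0980 with edgeR, and 0.344, 0.0202 and 0.0442 with DESeq2). DESeq2 called 7 of the listed genes, against 3.97% of all genes. The cytokine genes *Tnf* and *Il1b* were at 1.03 and 0.34 (adjusted p = 0.129 and 0.569 with edgeR).

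The next question was whether a distant tumor changed these genes in the lung before metastasis. None of the 9 passed in WT lungs at 14 days against control, where 0 of 16029 genes tested (0%) passed, nor in KO lungs, where 6 (0.0374%) did. At an unadjusted p under 0.05, edgeR gave 1 of the 9 in WT and 0 in KO mice, against 11.8% and 8.64% of all genes, so that 1 of 9 was no more than the background. DESeq2 called 0 of the 9 in either, and 0.539% and 0.382% of all genes to which it gave an adjusted p, which left out *Itgad* in KO mice. That gene was *Icam1*. Its 4 control lungs were at 159, 154, 158 and 164 FPKM, and the 6 lungs at 14 days ran from 126 to 165 with a median of 146. The groups overlapped through WT lung 3 at 165 FPKM, and the log2 fold change was −0.13 ± 0.06 (adjusted p = 0.357). In KO mice *Icam1* was at 155, 147, 143 and 145 FPKM in controls and from 134 to 153 (median 142) at 14 days, with a log2 fold change of −0.04 ± 0.06 (adjusted p = 0.871).

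*Itgam*, the chain of neutrophils and monocytes, had the highest fitted values of the 9 genes in both responses, although its value in WT mice was −0.01 with the replicate block and 0.08 without 14-day WT lung 6. Control lungs of WT mice were at 7.60, 6.05, 6.16 and 8.38 FPKM and those at 14 days from 5.06 to 11.9 (median 9.74), for a log2 fold change of 0.21 ± 0.23 (adjusted p = 0.753). Control lungs of KO mice were at 5.46, 6.56, 6.39 and 4.68 FPKM and those at 14 days from 4.12 to 11.6 (median 8.32), for 0.46 ± 0.23 (adjusted p = 0.603). Both comparisons overlapped. The neutrophil markers had higher fitted levels at 14 days for 6 of 6 tested in each genotype, with medians of 1.59 and 1.41 on the log2 scale. None of them passed, 6 in WT and 5 in KO mice had an unadjusted p under 0.05, and DESeq2 called 1 in WT mice. Their summed FPKM was 69.0 to 154 in WT controls and 162 to 774 at 14 days, and 102 to 182 and 56.5 to 808 in KO mice, and their part in the *Itgam* values was not tested.

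KO lungs did not pass against WT lungs for any of the 9 genes either, at 14 days (15 of 16029 genes passed, 0.0936%) or in controls (3 genes, 0.0187%). One of the 9 had an unadjusted p under 0.05 in each, near the 8.34% and 11.6% of all genes, and DESeq2 called 0, against 0.491% and 0.949% of all genes (with no adjusted p for *Itgam* and *Itgad* in controls). At 14 days it was *Icam2*, at 91.7 to 110 FPKM (median 105) in WT and 94.9 to 129 (median 111) in KO mice, with a log2 fold change of 0.15 ± 0.07 (adjusted p = 0.596). In controls it was *Itgal*, at 14.3, 14.0, 11.6 and 15.4 FPKM in WT and 10.6, 9.91, 12.6 and 8.03 in KO lungs. There KO lung 3 lay above WT lung 3, and the log2 fold change was −0.41 ± 0.16 (adjusted p = 0.347). The T and NK cell markers summed to 39.0 to 59.0 FPKM in the WT and 21.3 to 43.6 in the KO controls, with a median log2 fold change of −0.39, and the B cell markers to 35.2 to 49.5 and 12.8 to 33.7 FPKM, without overlap and with a median of −0.69. The part of either in the *Itgal* values was not tested. KO control lung 4 was the lowest of its group for 6 of the 9 genes and for *Ptprc* (47.4 FPKM), and without it the log2 fold change of *Itgal* was −0.30 (adjusted p = 0.537).

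*Vcam1* in lungs at 14 days ranged from 21.5 to 24.9 FPKM (median 23.8) in WT and from 19.7 to 39.0 (median 26.0) in KO mice. KO lung 2, at 39.0 FPKM, lay apart, and the log2 fold change was 0.20 ± 0.10 (adjusted p = 0.620), or 0.08 without that lung (adjusted p = 0.813). Over the 36 tests of the 9 genes in these 4 lung comparisons, log2 fold changes lay between −0.47 and 0.46, with SE from 0.05 to 0.29 and adjusted p from 0.347 to 0.992. The smallest SE, 0.05, was that of *Icam1* and the largest that of *Itgad*, the scarcest gene. The difference between the genotypes in the response to the tumor was positive for all 9 genes, between 0.07 and 0.32 on the log2 scale, and none passed (1 of 16029 genes did, 0.00624%), with 1 unadjusted p under 0.05 (8.53% of all genes) and 0 calls by DESeq2 (0.189% of all genes, with no adjusted p for *Itgad*). *Vcam1* turned negative without 14-day KO lung 2 (−0.05) and *Itgax* without WT control lung 1 (−0.0029). The leukocyte, T and NK cell and B cell markers were positive for 3 of 3, 7 of 7 and 4 of 4, with medians of 0.43, 0.48 and 0.94, and their part in these values was not tested. These values share their control lungs with the comparisons above. Shares of the alpha chains and ratios to *Ptprc* or *Pecam1* passed in 0 of 12 and 0 of 27 lung tests, and the lowest adjusted p was 0.0714, for *Itga4* over *Ptprc* at 14 days against control in each genotype (exact permutation tests, differences of −0.30 and −0.30 on the log2 scale). With single lungs left out, *Itgam* passed for its share in WT mice without 14-day WT lung 4 (exact permutation test, adjusted p = 0.0454) and *Vcam1* over *Pecam1* for KO against WT without 14-day KO lung 4 (0.0216).

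Set against the 14-day lungs of WT mice, WT tumors differed in all 9 genes, in a comparison where 12165 of 16115 genes (75.5%) passed. All 9 also had an unadjusted p under 0.05 and were called by DESeq2, against 76.8% and 74.8% of all genes. *Itgam* and *Itgb2* were higher in the tumor, by 1.45 ± 0.19 and 0.46 ± 0.14 on the log2 scale (adjusted p = 2.47e-07 and 0.00459). The ligands of the beta 2 integrins were far lower, *Icam2* at −5.52 ± 0.15 and *Icam1* at −4.31 ± 0.13 (adjusted p = 4.71e-21 and 4.00e-20), and the endothelial markers summed to 34.9 to 47.3 FPKM in these tumors and 882 to 1021 in these lungs. *Itgal* was at −1.90 ± 0.17, *Itga4* at −1.56 ± 0.19, *Itgax* at −1.10 ± 0.15, *Itgad* at −0.99 ± 0.23 and *Vcam1* at −0.93 ± 0.17. Fitted levels in the tumor were higher for 6 of 7 monocyte and macrophage markers (median 1.29 on the log2 scale). They were lower for 7 of 7 T and NK cell, 6 of 6 tested neutrophil and 5 of 6 alveolar macrophage markers (medians −1.23, −3.28 and −3.10). The part of the markers in the values of the 9 genes was not tested. Relative to *Pecam1*, *Vcam1* was higher in the tumor, with a difference in log2 ratio of 2.71, whereas *Icam2* and *Icam1* were lower by this measure too, by −1.24 and −0.64 (exact permutation tests, adjusted p = 0.0122 for each). Relative to *Ptprc*, *Itgam* and *Itgb2* were higher in the tumor, by 2.39 and 1.53, and *Itgal* and *Itga4* lower, by −0.76 and −0.45 (exact permutation tests, adjusted p = 0.0122 for each). *Itgax* and *Itgad* over *Ptprc* differed by 0.02 and 0.21 (exact permutation tests, adjusted p = 0.924 and 0.475). With a pseudocount of 1 the *Itgad* difference was 0.68 and passed (adjusted p = 0.0433). *Itgam* took 68.7% ± 2.57 of the alpha chain FPKM in tumors and 25.2% ± 4.94 in lungs, and *Itgal* 11.6% ± 2.78 and 37.3% ± 2.35 (SD, n = 6 each, exact permutation tests, adjusted p = 0.00866 for each). Of the other adhesion genes, 28 could be tested, of which 6 were higher in the tumor, with the smallest p for *Thy1*, *Fn1* and *Cd44* (2.77, 2.05 and 1.04 on the log2 scale). The other 19 that passed were lower, with the smallest p for the endothelial junction genes *Pecam1*, *Cdh5* and *Esam* (−3.73, −4.30 and −3.97).

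The difference between host genotypes was larger in tumors than in 14-day lungs for *Icam1* and *Itgal*, by the test of that difference over 24 samples. It was 1.15 ± 0.17 on the log2 scale for *Icam1* (adjusted p = 0.000957) and 1.32 ± 0.23 for *Itgal* (adjusted p = 0.00480), where 114 of 16115 genes passed (0.707%). All 9 genes had positive values, 8 had an unadjusted p under 0.05 (10.9% of all genes) and DESeq2 called 3 (1.38% of all genes). *Itgad* at 1.18 ± 0.31 (adjusted p = 0.0846) and *Itgax* at 0.81 ± 0.21 (adjusted p = 0.0740) did not pass. Both passed without WT tumor 1 (adjusted p = 0.0320 and 0.0385), and *Itgax* also without KO tumor 2 (0.0314) and with DESeq2 (0.0230). The remaining 5 genes were between 0.44 and 0.63, with adjusted p from 0.285 to 0.534.

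Genes whose levels ran most closely with these were listed by Pearson's r of log2(CPM + 1), as a description over samples in which all genes share the host genotype, the library and its depth. Over the 12 tumors, *Itgb2* ran with *Cybb*, the gene of a phagocyte NADPH oxidase subunit (r = 0.970), *Mpeg1*, a macrophage gene (0.965), and *Gm10053* (0.959). *Icam1* ran with *Dram1* (0.976), *Serpina3g* (0.946) and *Gm4070* (0.944), and after the group means were removed these were 0.886, 0.727 and 0.733. *Vcam1* ran with *Prex1* (0.963), the T cell gene *Cd3e* (0.953) and *Ly6c1* (0.944). Over the 20 lungs the closest genes were others, *Ccdc18*, *Csf2rb* and *Psd4* for *Itgb2* (0.85, 0.844 and 0.828), *Lmna*, *Hist1h4n* and *Pld3* for *Icam1* (0.849, 0.832 and 0.826) and *Magt1*, *Asap3* and *Supt20* for *Vcam1* (0.756, 0.737 and 0.712).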

How the data were processed

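The authors deposited estimated counts per gene, obtained by alignment of paired-end reads from stranded mRNA libraries to GRCm38 with STAR and quantification with RSEM, as whole numbers without normalization. They also deposited FPKM values from RSEM, scaled for transcript length and library size, so the level of an abundant transcript affects the FPKM of all others in a sample. The annotation release is not given in the sources used here. At 4446323 to 8318711 counts per sample, scarce genes are measured imprecisely.

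The counts were tested with the quasi-likelihood test of edgeR 4.0.16 (R 4.3.3, TMM, filterByExpr), in separate fits of the 12 tumors, the 20 lungs and the 24 samples taken at 14 days, with a mean per group and Benjamini-Hochberg adjustment over all genes tested. A gene passed at an adjusted p under 0.05. The SE is the log2 fold change divided by the square root of F. FPKM shares and log2 ratios (pseudocount 0.1) were tested by exact permutation, two-sided (scipy 1.17.1), adjusted over 20 and 45 tests.

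The members, gene lists and tests were chosen with earlier results of these data known. Named were all members, up to 3 listed adhesion genes per direction with the smallest p among those that passed, the 3 closest genes of *Itgb2*, *Icam1* and *Vcam1*, and *Clic4*. *Fermt3*, *Selplg*, *Itgb1*, *Itgb7* and the markers and cytokine-induced genes given singly were named after their values were seen, and 1 cytokine-induced gene is not reported here. The alternatives were DESeq2 1.42.0, RLE size factors, other filters, the replicate number as a block, the compared groups alone and each sample left out. The study's limits (adjusted p of 0.05 and 2-fold in tumors, 0.25 and 1.5-fold in lungs) were also applied, without a fold limit for the lung interaction. Shares and ratios were also computed from TMM-normalized CPM in place of FPKM, and ratios with a pseudocount of 1.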

Additional observations from a re-analysis of the deposited data

Results flagged for a closer look

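The difference between host genotypes differed between tumor and 14-day lung, by the test of that difference, for *Itgal* (1.32 on the log2 scale) and *Icam1* (1.15). *Icam2* in WT tumor 2, at 7.01 FPKM, lay far above the other 5 WT tumors, with a gap to the next tumor of 0.681 of the group's whole range, above Dixon's 95% limit for 6 samples. It was the only such case among the 54 groups of values examined, and chance gives about 1 in 20.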

How the results depend on the processing

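In tumors, 5 members passed under RLE size factors, without a filter and with the replicate block, 8 with DESeq2, 4 with at least 10 counts in every tumor (where *Itgad* was too low to be tested) or at the study's limits, and 4 to 5 with a tumor left out. In the 5 lung comparisons 0 passed under every alternative. WT tumors against lungs gave 9 members (7 with at least 10 counts), and the tissue difference 2, with 3 by DESeq2 and 2 to 4 with a sample left out. Ratios passed in 9 of 45 tests (8 to 10 with a sample left out) and shares in 6 of 20 (6 to 9, and 8 with CPM).

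The numbers of all genes that passed moved more. DESeq2 gave 549 in tumors against 347, and 73 and 47 for the lung responses in WT and KO mice against 0 and 6. For KO against WT lungs it gave 68 against 15 at 14 days and 43 against 3 in controls. It gave 15 for the lung interaction against 1, and 200 for the test of the genotype difference between tissues against 114. At the study's limits, applied to the edgeR fits, the numbers were 146 in tumors and 92, 42, 34, 37 and 8 in the lungs. The 8 are of the lung interaction, for which no fold limit was set, and the study itself used DESeq2. With the compared groups alone the KO response gave 0, and KO against WT gave 6 at 14 days and 6 in controls. Leaving out a sample gave 203 to 488 in tumors and 0 to 4, 0 to 6, 7 to 22, 1 to 3 and 0 to 2 in the lungs. For the test of the genotype difference between tissues it gave 46 to 201. The cause was not tested.

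The replicate numbers were not treated as pairing the samples, since in none of the 7 pairs of groups did every correlation of same-numbered deviations exceed 0.1 (from −0.34 to 0.214). This does not settle whether same-numbered tumors and lungs share a mouse, and in KO mice all 6 such correlations were positive (0.0365 to 0.16). With the replicate block, the lung responses gave 13 genes in WT and 24 in KO mice, the lung interaction 0, and tumors 257. Depth limits *Icam2* and *Itgad*, with as few as 5 and 6 counts in a tumor.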
